A study of Drosophila melanogaster with 14 samples.

Results

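The genes described here are 53 Drosophila melanogaster genes that carry only a computed symbol, CG followed by digits, and whose mRNA was lower in larvae with mutations in both Septin2 and Septin5 than in every other library. They were chosen from the expression values themselves, in log2 CPM, the logarithm to base 2 of a gene's reads scaled to the size of its library. Each had a mean of at least 2 in the control, a mean within 0.6 of the control in each single mutant, a highest double mutant library below the lowest of the other 10 libraries, and a double mutant mean at least 1 below the control. The authors deposited values for 17869 genes, of which 6080 had a CG symbol, and 3749 of these reached a control mean of 2. The limits on the single mutants left 2841 and then 2403 genes, the condition of no overlap left 77, and the required drop left 53. Since these values chose the genes, they are given as a description, and nothing about the 53 rests on a test of them.

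The libraries were made from polyA RNA of whole larvae in the third instar, and the stocks were kept at 25 degrees. The control carried the w1118 genotype (n = 4), the single mutants carried the Sep2[2] allele (n = 3) or the Sep5[2] allele (n = 3), and the double mutant carried both alleles (n = 4). No larval age beyond the instar is given, and the growth and extraction notes speak of adult flies where the sample labels say larvae. Whether the control carries the same genetic background as the mutants is not stated, so differences between the stocks and effects of the septin alleles cannot be told apart. Nothing in the labels says that the libraries of a group came from separate cultures, so the spread between them may be partly technical.

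Septins bind GTP and join into rods and filaments that act as scaffolds and barriers at the cell cortex, in cytokinesis for example. The fly genes are Septin1, Septin2, Septin4, Septin5 and pnut. A CG symbol is what the fly annotation assigns to a predicted gene until a study names it. Such a symbol says nothing of how well the protein is understood: some CG genes encode enzymes of known families, and others have no described product.

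Libraries held from 8858393 to 47203028 reads assigned to genes, the fewest in double mutant replicate 3. Reads of mt:lrRNA, from the mitochondrial ribosome, made up 4.74 to 9.83% of control libraries, 5.74 to 7.25% of Sep2[2], 6.70 to 11.8% of Sep5[2] and 10.6 to 24.9% of double mutant libraries, and the part of this in the results was not tested. In control replicates 1 to 4 Septin2 stood at 5.89, 5.59, 5.55 and 6.07 log2 CPM. In Sep2[2] it stood at 4.44, 4.88 and 4.71, and in Sep5[2] at 6.30, 5.87 and 5.58. The double mutant libraries gave -0.31, -1.52, -0.42 and 3.20. Replicate 4 of the double mutant therefore held far more Septin2 mRNA than its 3 companions, from 160 reads against 21, 7 and 5, and Septin2 was much lower in the double mutant than in the single mutant with the same allele. Septin5 was at -2.76, -3.34 and -3.650 log2 CPM in Sep5[2] and at -1.80, -2.36, 0.50 and -0.10 in the double mutant, against 1.87 to 2.99 in the control. The labels do not describe the lesions, so these levels cannot check the genotypes fully. The values of the genes that differ most between double mutant replicate 4 and its companions are given with and without that library.

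The drop in the double mutant ran from 1.0004 to 6.09 log2 CPM over the 53 genes. Its median was -1.42 as a difference from the control, which is 2.68-fold lower. It was 2 or more in 6 genes and under 1.5 in 30, so that most lay close to the limit of 1. Without double mutant replicate 4 the median difference was -1.39, and 50 of the 53 genes still had a drop of 1 or more. The control means spanned 2.06 to 7.72 log2 CPM. In limma's moderated test across 12586 genes all 53 were called lower in the double mutant at an adjusted p of 0.05, where 22.5% of all tested genes were called lower and 22.5% higher. None of the 53 was called in Sep2[2], where 1.24% of tested genes were lower and 3.26% higher, or in Sep5[2], where 1.24% were lower and 3.89% higher. With same-numbered control and Sep2[2] libraries taken as pairs, 5 of the 53 were called lower and 3 higher in Sep2[2], where 10.3% of tested genes were lower and 11.5% higher. The lower genes were CG8236 (-0.87), CG12289 (-0.71), CG32236 (-0.67), CG13693 (-0.60) and CG30183 (-0.59), and the higher ones CG31778 (0.78), CG17211 (0.71) and CG10514 (0.60). The genes were chosen on these same contrasts, and nothing is read from the counts. All 4 double mutant libraries lay below the other 10 in 159 of the 3749 CG genes (4.24%), and in 308 of 6234 genes with another kind of symbol (4.94%).

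**Figure D1:**
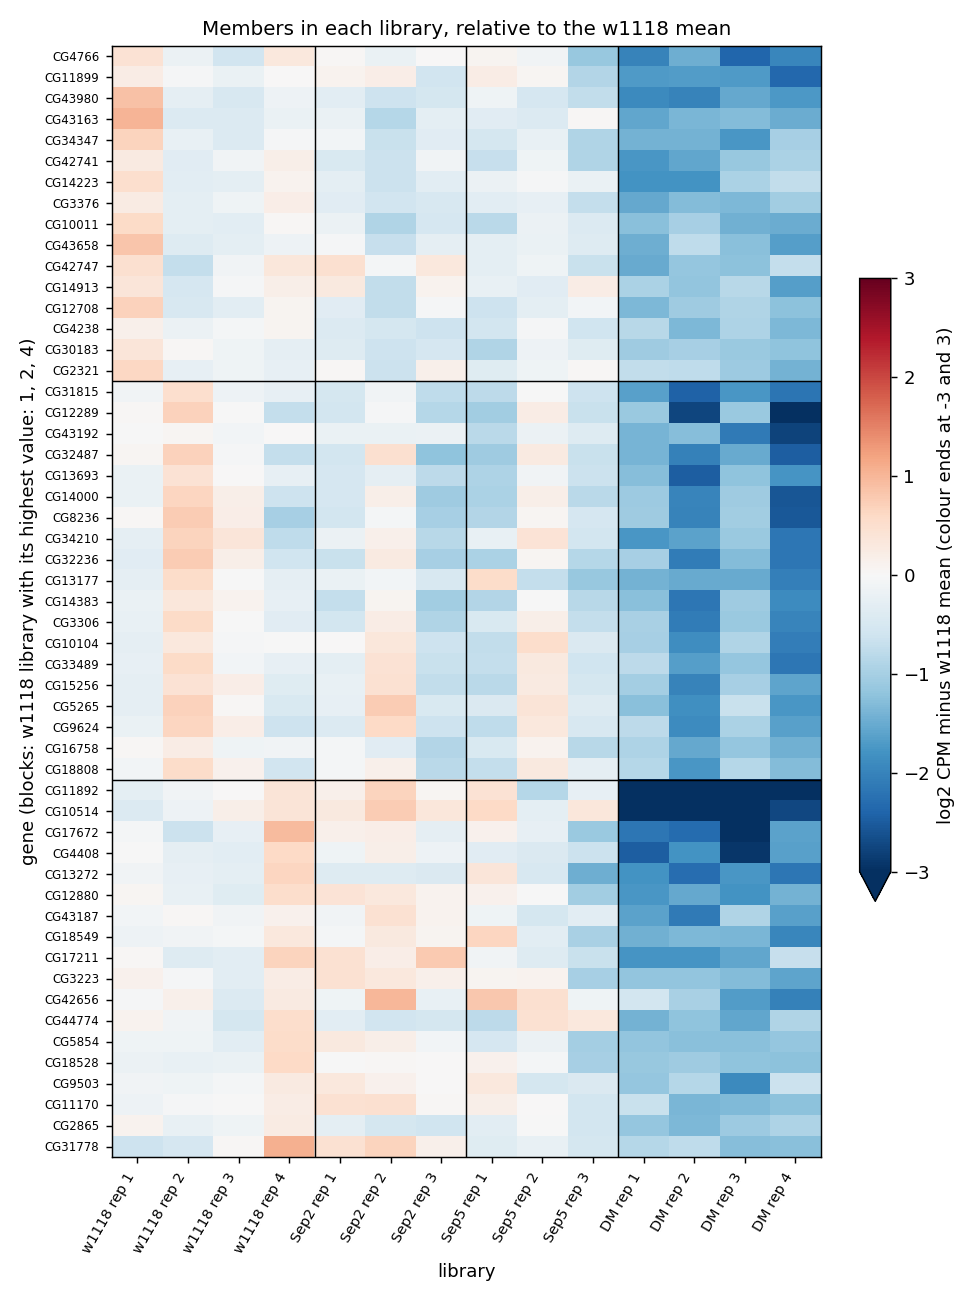
Each row is 1 of the 53 genes and each column 1 of the 14 libraries; colour is log2 CPM minus the gene's control mean, and horizontal lines separate the genes by the control replicate that held their highest value. The 4 double mutant columns are blue in every row, deepest for CG11892 and CG10514, and the single mutant columns are paler, with Sep5 replicate 3 tending to blue in all blocks and Sep2 replicate 3 and Sep5 replicate 1 in the block of control replicate 2 (medians -0.62, -0.82 and -0.79).

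CG11892 and CG10514 had the largest drops. Both encode proteins of the ecdysteroid kinase-like family, whose founding member, described in the silkworm, phosphorylates ecdysteroids. CG11892 stood at 5.62, 5.79, 5.91 and 6.29 log2 CPM in the control, 6.05, 6.57 and 5.97 in Sep2[2], 6.33, 5.06 and 5.66 in Sep5[2], and 0.11, -1.23, -2.23 and 2.61 in the double mutant. CG10514 stood at 4.33, 4.58, 4.89 and 5.11 in the control, 5.03, 5.50 and 5.08 in Sep2[2], 5.33, 4.43 and 5.06 in Sep5[2], and 1.11, 0.31, -0.18 and 2.00 in the double mutant. The control and single mutant libraries intermingled for both genes, and the double mutant libraries lay at least 2.32 log2 CPM below all of them. The double mutant libraries held 29, 9, 1 and 106 reads of CG11892 and 60, 30, 6 and 69 of CG10514, so the lowest levels rest on few reads.

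In both genes the highest double mutant library was replicate 4, which also held the most Septin2 mRNA. CG11892 was 67.9-fold lower than the control over all 4 double mutant libraries, a difference of -6.09 in log2 CPM (SE 0.74). It was 129.6-fold lower without replicate 4 (-7.02) and 42.4-fold lower without replicate 3 (-5.40), the library with 1 read. CG10514 was 15.1-fold lower (-3.92, SE 0.38), and 19.9-fold lower without replicate 4 (-4.32). Replicate 4 was more than 1 log2 CPM above the mean of its companions in these 2 of the 53 genes and more than 1 below it in 4, CG12289, CG43192, CG14000 and CG8236. The differences of these 4 from the control were -1.99, -1.89, -1.67 and -1.66 with replicate 4, and -1.66, -1.60, -1.38 and -1.37 without it. What sets that library apart was not tested.

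The next genes by size of drop were CG17672, for which no role is given here, and CG4408, a metallocarboxypeptidase. CG17672 stood at 3.45, 2.87, 3.27 and 4.45 log2 CPM in the control, 3.66, 3.70 and 3.25 in Sep2[2], 3.63, 3.26 and 2.41 in Sep5[2], and 1.34, 1.21, 0.20 and 1.90 in the double mutant. CG4408 stood at 4.37, 4.10, 4.05 and 4.97 in the control, 4.24, 4.54 and 4.21 in Sep2[2], 4.04, 3.93 and 3.72 in Sep5[2], and 1.89, 2.57, 1.46 and 2.74 in the double mutant. Their differences were -2.35 (SE 0.39) and -2.21 (SE 0.27), and in both genes double mutant replicate 3 was the lowest library and Sep5[2] replicate 3 the lowest outside the double mutant.

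CG13272 and CG31815 each had a drop of 2.00. CG13272 stood at 2.14, 2.00, 1.95 and 2.89 log2 CPM in the control, 1.87, 1.87 and 1.81 in Sep2[2], 2.60, 1.77 and 0.78 in Sep5[2], and 0.44, -0.05, 0.50 and 0.07 in the double mutant. CG31815 stood at 2.88, 3.49, 2.84 and 2.74 in the control, 2.46, 2.88 and 2.24 in Sep2[2], 2.19, 2.97 and 2.37 in Sep5[2], and 1.36, 0.55, 1.24 and 0.79 in the double mutant. In CG13272, Sep5[2] replicate 3 lay nearer to the double mutant than to the control, whereas in CG31815 every single mutant library was at least 0.83 above the highest double mutant library.

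CG12289 (-1.99, SE 0.45) and CG4766 (-1.95, SE 0.29) followed, the latter a protein of the mab-21-like family. CG12289 stood at 3.23, 3.88, 3.19 and 2.48 log2 CPM in the control, 2.64, 3.17 and 2.35 in Sep2[2], 2.15, 3.42 and 2.52 in Sep5[2], and 2.08, 0.44, 2.08 and 0.22 in the double mutant. CG4766 stood at 4.19, 3.58, 3.20 and 4.09 in the control, 3.79, 3.56 and 3.78 in Sep2[2], 3.84, 3.65 and 2.62 in Sep5[2], and 1.76, 2.30, 1.39 and 1.81 in the double mutant. The double mutant libraries of CG12289 fell into a higher pair, replicates 1 and 3, and a lower pair, replicates 2 and 4, and the higher pair was only 0.07 below Sep5[2] replicate 1.

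The last of the 10 largest drops were in CG43192 and CG11899. CG43192 stood at 2.14, 2.21, 2.06 and 2.16 log2 CPM in the control, 1.94, 1.94 and 1.97 in Sep2[2], 1.34, 1.97 and 1.75 in Sep5[2], and 0.74, 0.86, 0.02 and -0.62 in the double mutant. CG11899, a phosphoserine aminotransferase of serine synthesis, stood at 6.06, 5.80, 5.65 and 5.85 in the control, 5.94, 6.05 and 5.26 in Sep2[2], 6.06, 5.91 and 4.96 in Sep5[2], and 4.14, 4.17, 4.15 and 3.48 in the double mutant. CG43192 had the smallest control SD of the 53, 0.06 (n = 4). CG11899 was 3.62-fold lower, with Sep5[2] replicate 3 again the lowest library outside the double mutant.

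**Figure D2:**
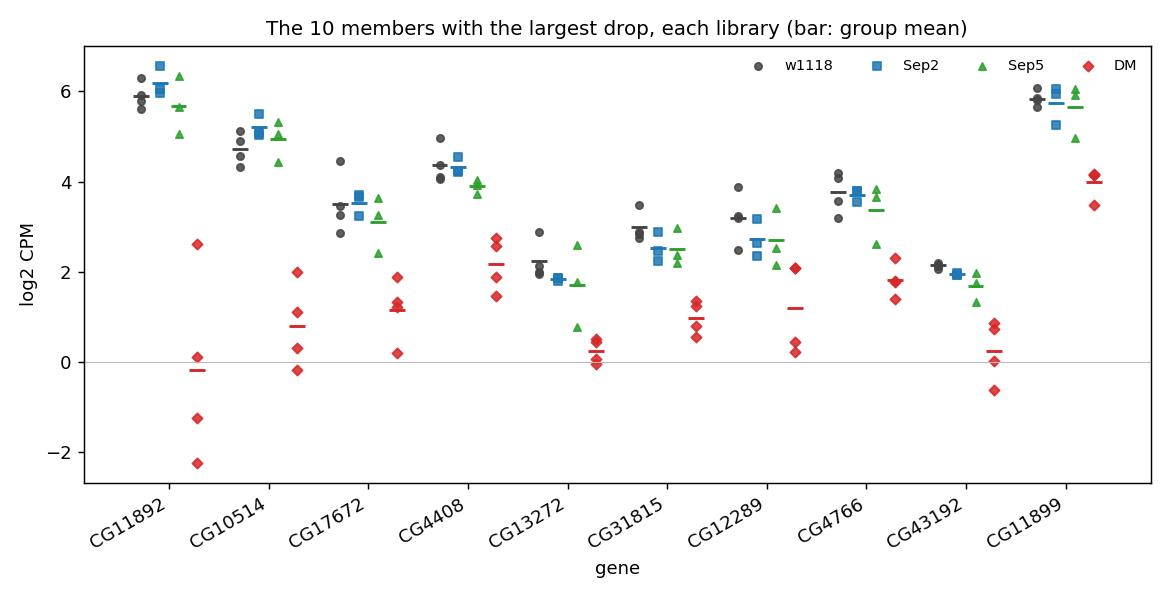
Log2 CPM of the 10 genes with the largest drop, 1 point per library (4 control, 3 Sep2, 3 Sep5 and 4 double mutant, DM), with a bar at each group mean. The double mutant points lie below all others in each gene; those of CG11892 spread over 4.84 log2 CPM, and those of CG12289 form 2 pairs.

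The genes with the highest control means had smaller drops. CG16758, a purine nucleoside phosphorylase, stood at 7.76, 7.93, 7.58 and 7.60 log2 CPM in the control, 7.65, 7.37 and 6.85 in Sep2[2], 7.26, 7.83 and 6.89 in Sep5[2], and 6.80, 6.18, 6.57 and 6.27 in the double mutant. CG3376, an acid sphingomyelinase, stood at 7.39, 6.84, 7.004 and 7.34 in the control, 6.80, 6.56 and 6.65 in Sep2[2], 6.83, 6.89 and 6.42 in Sep5[2], and 5.60, 5.85, 5.79 and 6.10 in the double mutant. The single mutant libraries of both genes tended to lie between the control and the double mutant, and in CG16758 the gap to the double mutant was only 0.04.

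CG43658 stood at 7.97, 6.75, 6.83 and 6.96 in the control, 7.09, 6.44 and 6.85 in Sep2[2], 6.83, 6.92 and 6.75 in Sep5[2], and 5.65, 6.37, 5.87 and 5.47 in the double mutant. CG18549, which RefSeq also lists as MFSD11, a major facilitator superfamily protein, stood at 6.70, 6.75, 6.80 and 7.17 in the control, 6.80, 7.15 and 6.93 in Sep2[2], 7.503, 6.53 and 5.89 in Sep5[2], and 5.42, 5.52, 5.48 and 4.89 in the double mutant. The differences of these 4 genes from the control lay between -1.53 for CG18549 and -1.27 for CG16758, on both sides of the median of the 53 (-1.42). Per kilobase of exon the highest control level among the 53 was again that of CG16758, 6.73 log2 CPM per kilobase, and the lowest that of CG13272, 0.35.

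The limits cut through a continuous range of values. CG2321 was just inside the limit on the drop (1.0004) and CG31224 just outside it (0.994). Next inside were CG31778, a Kunitz-type protease inhibitor, and CG30183, and next outside CG15343 and CG42590, with drops of 0.986 and 0.970. At the limit of 0.6 on the single mutants, CG32236, CG14383 and CG42741, a Kruppel-like zinc finger protein, were just inside at 0.586, 0.575 and 0.573. CG4374, CG32447 and CG3397 were just outside at 0.607, 0.608 and 0.608. CG32447 and CG3397 had double mutant differences of -3.74 and -6.62, so some genes with large drops missed the group by less than 0.01 in a single mutant, CG3397 with a drop larger than that of CG11892.

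At the control limit of 2, CG12708, CG43192 and CG13272 were just inside, at 2.06, 2.14 and 2.25 log2 CPM, and CG33668, CG15909 and CG12661 just outside, at 1.87, 1.72 and 1.504. The gap between the highest double mutant library and the lowest of the other 10 was 0.00026 in CG14000, 0.0048 in CG32236 and 0.0069 in CG42747. It was negative by 0.0028 in CG5250, 0.0032 in CG30385 and 0.0054 in CG12347, which are therefore outside. The median gap over the 53 genes was 0.146, it was under 0.1 in 18 of them and over 0.5 in 7.

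Although no single mutant mean was more than 0.6 from the control, the single mutants did not lie evenly around it. The Sep5[2] mean was below the control in 51 of the 53 genes (96.2%), where it was below in 58.0% of the 3749 CG genes. The Sep2[2] mean was below in 37 (69.8%), against 57.0%. The median difference was -0.36 in Sep5[2] and -0.24 in Sep2[2], against -0.09 and -0.08 over all 3749. Both single mutant means were below the control in 37 genes and both above it in 2, CG10514 and CG42656, whose 255 bases of exon were the fewest of the 53. Only 4 genes had both means within 0.2 of the control and none had both within 0.1. The requirement that every single mutant library exceed the double mutant does not fix these signs, but the genes were chosen on the same libraries and control, so the counts are given without a test.

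The lowest library outside the double mutant was Sep5[2] replicate 3 in 17 of the 53 genes, Sep2[2] replicate 3 in 11, Sep5[2] replicate 1 in 10, Sep2[2] replicate 2 in 7 and a control library in 5. Membership therefore turned on single libraries. Without Sep5[2] replicate 3, 91 genes met the same limits, without Sep5[2] replicate 1, 112, without Sep2[2] replicate 3, 81, and without double mutant replicate 1, 107.

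The sum of both single mutant differences gives a scale for the double mutant difference. It came to a median of 37.8% of the double mutant drop. It exceeded 50% of the drop in 15 genes and stayed under 25% in 20, and it reached the drop in none. It was largest for CG30183 (89.3%), CG4238, a HECT-type ubiquitin ligase (82.8%), and CG10011, an ankyrin repeat protein (75.6%). CG30183 stood at 5.51, 5.198, 5.02 and 4.89 log2 CPM in the control, 4.76, 4.53 and 4.65 in Sep2[2], 4.25, 5.00 and 4.78 in Sep5[2], and 4.09, 4.15, 4.04 and 3.95 in the double mutant. The single mutant means of CG30183 thus lay between the control and the double mutant, with Sep5[2] replicate 2 within the control range, whereas in CG11892 the sum was -1.13% of the drop, that is, in the opposite direction. The lower of the single mutant means was still 0.59 to 5.86 above the double mutant mean, with a median of 1.06. These sums share the control libraries with the double mutant difference, and each is limited to 1.2 by the way the genes were chosen.

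**Figure D3:**
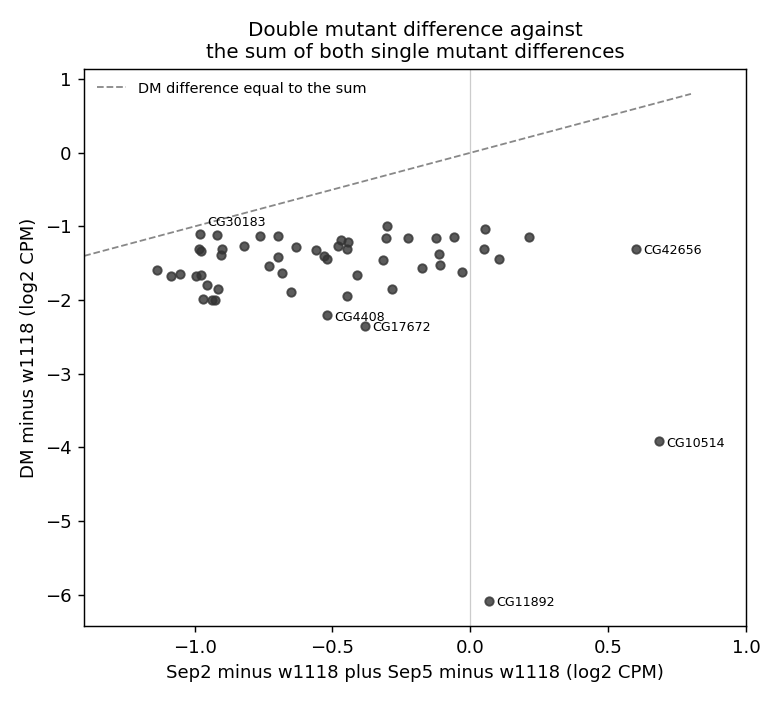
Each point is 1 of the 53 genes: the x axis is the sum of the Sep2 and Sep5 differences from the control and the y axis the double mutant difference, both in log2 CPM. All points lie below the dashed line of equality; CG30183 is closest to it in percent of the drop, and CG11892 and CG10514 are far below.

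CG10514 and CG11892 were the only pair of the 53 within 20 kb of each other. In the BDGP6 annotation CG10514 lies on the minus strand of chromosome 3R (25278427 to 25279846, 2 exons) and CG11892 on the plus strand (25281548 to 25283237, 4 exons), with 1701 bases between them. They belong to a cluster of 28 genes (25268009 to 25331203) that RefSeq lists with a Dro family designation, of which 26 are protein coding and 22 had enough reads to be tested. Septin2 lies on the same chromosome arm, but outside this cluster.

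Most of the other 20 tested genes of the cluster did not follow the pair. In the double mutant 11 of the 20 rose and 4 fell (limma, adjusted p under 0.05), where 22.5% of all tested genes rose and 22.5% fell. CG10513, the next gene before CG10514, rose by 1.66 (SE 0.28, adjusted p = 0.000517), with control libraries at 4.63, 4.99, 5.24 and 4.20 log2 CPM and double mutant libraries at 6.06, 6.83, 6.29 and 6.51. It also rose in Sep2[2], by 1.58 (adjusted p = 0.00772), and the value in Sep5[2] was 0.69 (adjusted p = 0.214). CG31300, the next gene after CG11892, was too low to be tested.

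The largest rise in the cluster was in CG11893, whose control libraries stood at -1.03, -0.18, 0.13 and -0.59 log2 CPM and whose double mutant libraries stood at 4.16, 4.90, 4.15 and 4.41. It rose by 4.83 in the double mutant and by 5.37 in Sep2[2], and its difference in Sep5[2] was 0.42 (adjusted p = 0.509). CG10562 rose by 3.39 and CG31288 by 2.16 in the double mutant. The 4 that fell there were CG31099 (-1.71, adjusted p = 0.00501), CG31097 (-1.22, 0.00929), CG13658 (-1.14, 0.00323) and CG31102 (-0.81, 0.0336). In the single mutants 3 of the 20 rose in Sep2[2] and 3 in Sep5[2], and 1 fell in Sep2[2], CG31097. Over all tested genes 3.26% rose and 1.24% fell in Sep2[2], and 3.89% rose and 1.24% fell in Sep5[2]. With the Sep2[2] libraries paired to the control, 5 of the 20 rose in Sep2[2] and 3 fell, where 11.5% of all tested genes rose and 10.3% fell. Genes of this family are related in sequence and can share reads, and the sources used here do not say how reads that match several genes were counted.

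**Figure D4:**
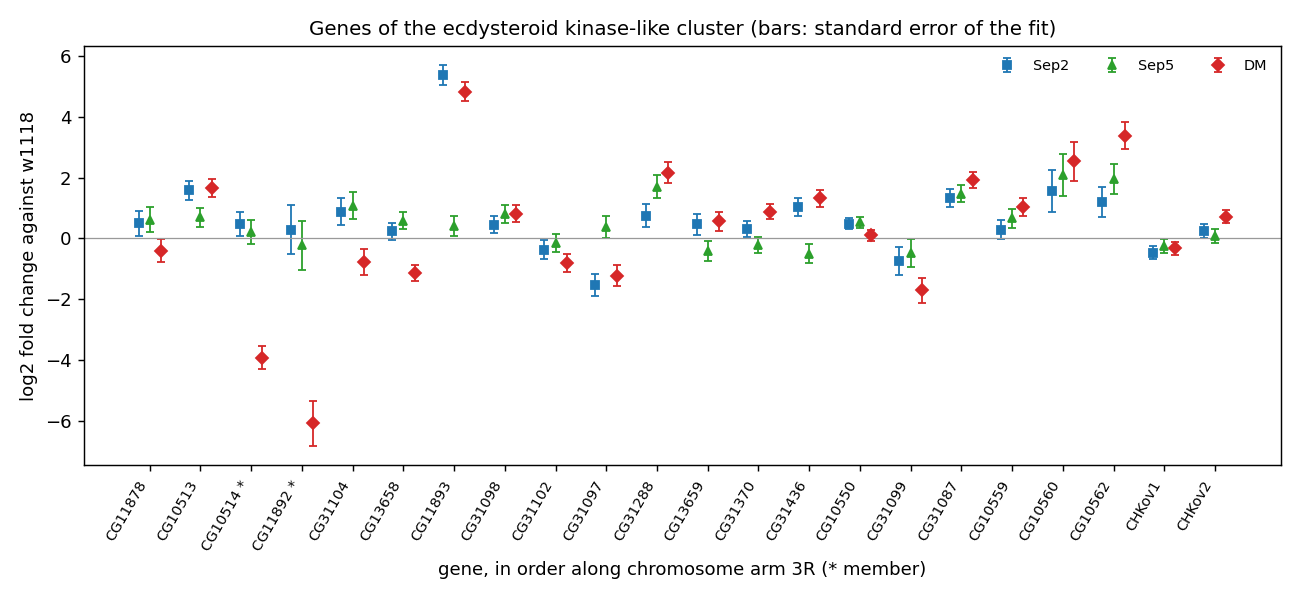
Log2 fold change against the control for the 22 tested genes of the cluster, in their order on chromosome arm 3R, with the standard error of the limma fit; squares are Sep2, triangles Sep5 and diamonds the double mutant (DM), and asterisks mark CG10514 and CG11892. The double mutant values of the marked pair are the lowest in the cluster, while CG10513 beside them and CG11893 are above 0.

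The remaining 51 genes were spread over the chromosomes. The 53 fell 9 on 2L, 9 on 2R, 11 on 3L, 17 on 3R and 7 on X, out of 739, 732, 718, 901 and 644 CG genes with a control mean of at least 2. This is 1.22%, 1.23%, 1.53%, 1.89% and 1.09% of those genes, against 1.41% over all. All 53 are annotated as protein coding. Of the 104 other genes directly beside them 75 were tested, and 23 (30.7%) were lower and 13 (17.3%) higher in the double mutant. Over all tested genes 22.5% were lower and 22.5% higher. The median difference of the 75 was -0.18. Among them Sema2b, beside CG43187, met the same limits itself (-1.95).

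Exons of 16 of the 53 overlap exons of another gene, on the opposite strand in 13. The sources used here do not say whether counting used the strand, so reads of such partners cannot be told apart from reads of the gene itself. Of the 14 tested partners 2 were called lower, 2 higher and 10 neither (limma), where 22.5% of all tested genes were lower and 22.5% higher. The lower partners were bchs (-1.26, adjusted p = 0.00103), which overlaps CG14000 and met the same limits itself, and CG31055 (-1.18, adjusted p = 0.00328), which overlaps CG12880. Those called higher were Gdh, glutamate dehydrogenase (1.15, adjusted p = 0.00229), which overlaps CG5854, and Pal2 (1.04, adjusted p = 0.00169), which overlaps CG30183. CG44774, which carries a hairpin RNA locus of its own (hpRNA:CR46342, 0.34, adjusted p = 0.517), and CG11899, whose partner Mesh1 was at 0.06 (adjusted p = 0.872), were lower while their partners were not called.

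The 53 genes were also grouped by the control library in which each was highest. Every gene had its highest control value in replicate 1, 2 or 4, in 16, 19 and 18 genes, and none in replicate 3, where 16.1%, 41.2% and 26.4% of the 3749 CG genes peaked in replicates 1, 2 and 4 and 16.3% in replicate 3. The split was made after the values were seen and uses control libraries only, and it is described without a test.

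The 19 genes that peaked in control replicate 2 had much the same order of libraries in every genotype, and each feature of it was also that of most of the 1545 CG genes that peaked there. Within Sep2[2], 17 of the 19 were highest in replicate 2 and 18 were lowest in replicate 3, and within Sep5[2], 18 were highest in replicate 2 and 15 lowest in replicate 1. Within the double mutant, 18 were highest in replicate 1 or 3 and 19 were lowest in replicate 2 or 4. Of the 1545 genes, 86.3% and 79.8% had these highest and lowest libraries in Sep2[2], 80.4% and 70.6% in Sep5[2], and 84.7% and 90.4% in the double mutant. CG32236 stood at 4.78, 5.88, 5.29 and 4.52 log2 CPM in the control, 4.45, 5.39 and 4.12 in Sep2[2], 4.16, 5.17 and 4.26 in Sep5[2], and 4.11, 3.03, 3.82 and 2.95 in the double mutant. The set includes CG12289, CG31815, CG16758 and CG5265, which RefSeq also lists as CrAT, a carnitine acetyltransferase. Of the 19 genes 10 have a single annotated exon, against 25.9% of all CG genes that peaked in this library. The other sets held no single-exon gene, against 8.26% and 7.39% of all CG genes that peaked in control replicates 1 and 4.

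The summed level of 21 male germline markers followed the same order. It was 1677, 2256, 1646 and 1175 CPM in control replicates 1 to 4, 1106, 1497 and 796 in Sep2[2], 806, 1734 and 1108 in Sep5[2], and 1032, 473, 997 and 560 in the double mutant. Of the 21 markers 19 were highest in control replicate 2, and none was at the floor of the table in all libraries. The sum gives most weight to abundant markers such as loopin-1 and betaTub85D, at 9.68 and 8.24 log2 CPM in control replicate 2. In the double mutant 8 of the 21 fell and 1 rose (limma), with a median of -0.71, and the double mutant libraries overlapped those of the single mutants. Among the markers that fell were betaTub85D, the testis tubulin (-1.52), Mst98Ca (-1.43) and Prosalpha3T, a testis proteasome subunit (-1.71). The marker vas, needed in the germline of both sexes, rose by 1.14. Those not called included aly (-0.01), can (-0.10), sa (0.01), tomb (0.06) and bam (0.69). Relative to the control mean the 19 genes had medians of -1.09, -1.97, -1.11 and -2.08 log2 CPM in double mutant replicates 1 to 4, where the summed markers stood at -0.67, -1.80, -0.72 and -1.55. Over the 1545 CG genes that peaked in the same control library the medians were -0.50, -1.58, -0.65 and -1.34. In Sep5[2] replicate 1 and Sep2[2] replicate 3 the genes had medians of -0.79 and -0.82 while the markers were lower, at -1.03 and -1.05. The part of the germline in the result for these genes was not tested. In whole larvae fewer cells of a type and less RNA per cell cannot be told apart.

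The 16 genes that peaked in control replicate 1 had more exons, with a median of 6.5 and a range of 2 to 23, against a median of 6 over all CG genes that peaked there. They include CG3376, CG43658, CG10011, CG4238 and CG30183. Their sum of single mutant differences reached a median of 51.2% of the drop, and 12 of the 16 were highest in replicate 1 and 14 lowest in replicate 2 within Sep2[2], as were 29.4% and 69.3% of the 605 CG genes that peaked there. Their medians in double mutant replicates 1 to 4 were -1.49, -1.32, -1.25 and -1.38 relative to the control mean, with no pairing of the libraries.

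For the 18 genes that peaked in control replicate 4, the single mutant differences largely cancelled in sum. Their median difference was 0.15 in Sep2[2] and -0.30 in Sep5[2], and the sum reached a median of 6.10% of the drop. They include CG11892, CG10514, CG17672, CG4408, CG18549, CG31778 and CG9503, a GMC-type oxidoreductase. Within Sep5[2], 13 of the 18 were highest in replicate 1 and 13 lowest in replicate 3, as were 61.4% and 50.6% of the 988 CG genes that peaked there. Their medians in double mutant replicates 1 to 4 were -1.43, -1.36, -1.56 and -1.4996.

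**Figure D5:**
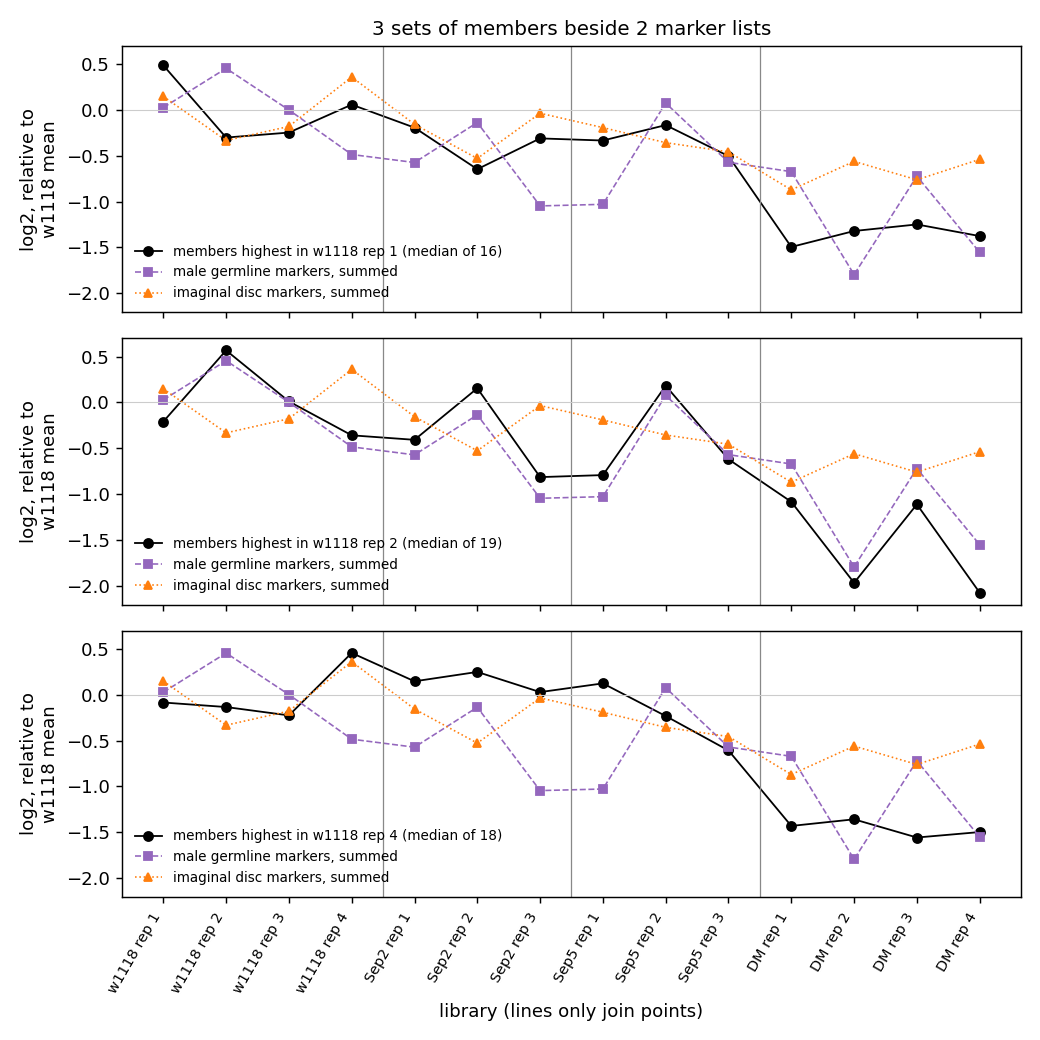
Black points are the median over the genes of each set, per library, as log2 CPM minus the control mean; purple squares and orange triangles are the summed CPM of male germline and imaginal disc markers, as log2 relative to the control mean. In the middle panel (19 genes) the black and purple points rise and fall together across libraries; in the other panels the double mutant points of the genes are level while the germline markers are not.

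Markers of other tissues and of hormone response also differed between control and double mutant larvae. The steroid hormone ecdysone times larval moults and pupariation, and its response genes summed to 3420 to 5958 CPM in the control, 3075 to 4532 in Sep2[2], 1873 to 3917 in Sep5[2] and 1027 to 1315 in the double mutant. The median of these genes was -0.74 in Sep5[2] and -0.35 in Sep2[2]. In the double mutant 15 of the 21 tested ecdysone genes fell and 2 rose, with a median of -1.35 against -0.01 over all tested genes. Those that fell included br (-2.54), ImpE1 (-3.53) and E23 (-3.57). Imaginal disc patterning genes, which mark the precursors of adult structures, fell in the double mutant in 11 of 20 and rose in 1. Their median was -0.82, and they included Dll (-2.31), vg (-2.30) and dac (-1.98). Their sum was 950 to 1536 CPM in the control, 829.1 to 1167 in Sep2[2], 871 to 1047 in Sep5[2] and 654 to 823 in the double mutant. None of the tested genes on these lists or the male germline list was called in either single mutant without pairing. With the Sep2[2] libraries paired to the control, 7 of the 21 male germline genes were lower and 1 higher in Sep2[2]. Of the 21 ecdysone genes 2 were lower and 1 higher there, and no disc gene was called. In that fit 10.3% of all tested genes were lower and 11.5% higher. None of the 53 genes is on any of the lists, and the part of these tissues in their drop was not tested.

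Most other lists went the other way in the double mutant. Body wall muscle had 12 of 16 higher and 0 lower, and midgut 10 of 17 and 2. Fat body had 9 of 16 and 2, and Malpighian tubules 9 of 14 and 0. Epidermis had 8 of 18 higher and 4 lower, hemocytes 5 of 12 and 1, and the prothoracic gland 3 of 10 and 1. Salivary gland genes were lower in 6 of 15 and higher in 3. Few genes were called among neurons (1 of 14 higher and 0 lower) and trachea (1 of 10 higher and 2 lower). The share of all tested genes called in each direction in the double mutant was 22.5%. Some of these lists also had calls in the single mutants. Without pairing, 4 of 17 midgut genes were higher and 0 lower in Sep2[2], and 4 higher and 1 lower in Sep5[2]. Of the 16 muscle genes 3 were higher and 0 lower in Sep5[2]. Hemocytes had 2 of 12 lower and 0 higher in Sep2[2]. Salivary gland had 1 of 15 higher in Sep2[2] and 2 in Sep5[2], with 0 lower. No other list had more than 1 call in a single mutant. Over all tested genes 3.26% were higher and 1.24% lower in Sep2[2], and 3.89% and 1.24% in Sep5[2]. With the Sep2[2] libraries paired to the control, 10 of 15 salivary gland genes were higher and 0 lower in Sep2[2]. The same fit gave 8 higher and 2 lower for midgut, and 7 and 1 for fat body, where 11.5% of all tested genes were higher and 10.3% lower.

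The same limits applied to genes with a name or a non-coding RNA symbol gave 127 of 6234 (2.04%), against 53 of 3749 for CG genes (1.41%). The median double mutant difference was -1.35 for the 127 and -1.42 for the 53, and 20 of the 127 and 6 of the 53 had a drop of 2 or more. The Sep5[2] mean was below the control in 122 of the 127 and the Sep2[2] mean in 79, and the sum of the single mutant differences had a median of 31.1% of the drop. Those with the largest drops were gl, a zinc finger protein of photoreceptor development (-3.95), mey (-3.35) and neo (-2.56), zona pellucida domain proteins of the apical matrix, asRNA:CR45137 (-2.75), sxe2 (-2.60), lncRNA:CR33938 (-2.45), and the genes of Notch signalling E(spl)mdelta-HLH (-2.58) and Tom (-2.50). Of the 127, 6 are on the imaginal disc list (Dll, Ser, dac, en, vg and wg), 3 on the ecdysone list (EcR, Eip74EF and ImpE3) and 1 on the midgut list (alphaTry).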

How the data were processed

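Per the series' design text and the file header, the authors deposited log2 CPM values of 14 libraries, scaled by TMM with a small count added. Per the submitters' processing notes, the tools were STAR 2.7.11b, cutadapt 3.5, FastQC 0.11.9 and edgeR 3.40, and dm6 and BDGP6 are named as builds; the counting tool and strand setting are not given in the sources used here. The lowest log2 CPM value was -3.650 (0.0797 CPM). Read numbers were recovered from the deposited log2 CPM values: all of the 200153 values under 1000 reads came out whole within 0.01 reads.

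The genes and lists were chosen with earlier results of these data known. The log2 CPM values of genes above 0 in at least 3 libraries (12586) were fitted by genotype over all 14 libraries with limma 3.58.1 (R 4.3.3, trend and robust options), with Benjamini-Hochberg adjustment and a threshold of 0.05. limma replaced a count test because the deposited values are logs. Fold changes of low genes are understated by the added count. Counting error limits the lowest levels, and read totals are not independent molecules.

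Positions come from Ensembl release 115 of BDGP6, with all 53 genes found, and family names from RefSeq. Per-library values were named for the 10 largest drops, the 4 highest control means and genes within 20 kb of each other; CG30183 and CG32236 were added after their values were seen. Same-numbered control and Sep2[2] libraries deviated together (correlations 0.305, 0.452 and 0.166) and were taken as paired. No label names them as pairs, so the pairing was chosen on the same data as the calls made with it. Other groups were not paired, although some of their correlations were as high. Replicates 1 to 3 gave -0.0847, 0.317 and 0.394 for control with Sep5[2], and -0.239, 0.446 and 0.44 for Sep2[2] with Sep5[2]. For control with the double mutant, replicates 1 to 4 gave -0.125, -0.355, 0.012 and 0.197. The paired calls are therefore given as a description. The genotype fit has no block, since no label names pairs and control replicate 4 has no Sep2[2] library of the same number. The pairing was used in a second fit of the control and Sep2[2] libraries alone, added after the data were seen. Alternatives were other limits, scalings, filters, left-out libraries and a replicate block. Tables were handled with Python 3.11.15 and pandas 2.3.3.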

Additional observations from a re-analysis of the deposited data

Results flagged for a closer look

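In 7 of 106 groups of 4 libraries, 1 library stood apart from the other 3 by Dixon's criterion, which chance alone exceeds in about 1 in 20 groups. In the double mutant this was replicate 4, lower than its companions in 3 genes: CG11899 at 3.48 log2 CPM (others 4.14 to 4.17), CG13177 at 4.74 (5.27 to 5.36) and CG18549 at 4.89 (5.42 to 5.52). In the control it was replicate 1 in CG43163, at 7.01 (5.59 to 5.81), and in CG2321, at 3.83 (2.97 to 3.10). Control replicate 4 was higher in CG18528, at 4.92 (4.09 to 4.14), and in CG9503, at 2.55 (2.16 to 2.21). The genes were chosen on these same values, with limits that disfavour high double mutant and low control libraries. The rate of 1 in 20 therefore need not hold for them, and the directions are given as a description.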

How the results depend on the processing

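The number of genes that met the limits, 53, was 23 with single mutants within 0.4 of the control, 81 within 0.8, 23 with a drop of at least 1.5, 339 with overlap allowed and 123 in CPM without TMM scaling, of which 34 were among the 53. It was 56 with quantile normalization, 46 with median centring and 57 with 1 CPM added, of which 42, 41 and 47 were among the 53. A control limit of 1 or 3 gave 61 or 44, and a drop of 0.5 gave 72. Leaving out 1 library gave 36 to 112 genes, 36 to 53 of them among the 53. Without TMM scaling the median of all tested genes moved to -0.47 and that of the 53 to -1.89, which is -1.41 relative to it, as in the deposited scaling. Leaving out 1 library, calls numbered 4812 to 5708 for the double mutant (5658 in all), 312 to 617 for Sep2[2] (566) and 238 to 1373 for Sep5[2] (646). For Sep2[2] they were 351, 343, 320, 351 and 312 without control replicate 1 or 2 or Sep2[2] replicate 1, 2 or 3. For Sep5[2] they were 371, 392, 294, 1373 and 238 without control replicate 1 or 4 or Sep5[2] replicate 1, 2 or 3, and 350 with the libraries of both groups alone. With the replicate block, calls numbered 5706, 528 and 592 for the double mutant, Sep2[2] and Sep5[2]. With a replicate block that pairs the control and Sep2[2] libraries, fitted alone and added after the data were seen, calls for Sep2[2] numbered 2742, against 602 for the same libraries without the block. Leaving out 1 library, the median of the trachea list ran from -0.157 to 0.135 (the latter without control replicate 1). That of neurons ran from -0.0228 (without double mutant replicate 4) to 0.143, with -0.0159 without control replicate 3. Quantile normalization moved fat body to 0.313 and muscle to 1.005. The causes were not tested. A planned description of promoter and protein sequences was not run.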
